A study of Homo sapiens with 6 samples.

Results

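The genes described here are the dual oxidases DUOX1 and DUOX2, their maturation factors DUOXA1 and DUOXA2, the NADPH oxidases NOX1 and NOX4, the shared membrane subunit CYBA and the activator NOXA1. They are 8 of the 58676 genes of the deposited table and were taken by symbol through GENCODE release 29. DUOX2 was selected on its RPKM values in control and knockdown, which do not overlap, so its difference is a description and carries no test. The other 7 genes were chosen by function around it, with earlier results of these data known. The RNA came from a human cell line that the labels call HCC, grown in DMEM with 10% FBS, and the 6 libraries comprise 3 of control cells and 3 of knockdown cells. The titles of the knockdown libraries read sponge, and that of the series names miR-19a. Sponges are RNAs with many copies of a microRNA target site, made to hold that microRNA away from its targets. The cell line is not named, and the sources used here do not give the vector, its timing or the number of clones or cultures. Since the labels do not call the replicates separate cultures, the p-values reflect only how these libraries vary, which may be technical.

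NADPH oxidases carry electrons from NADPH across a membrane to oxygen and so make superoxide or hydrogen peroxide. DUOX1 and DUOX2 release hydrogen peroxide, are switched on by calcium, and leave the endoplasmic reticulum only with their partners DUOXA1 and DUOXA2. They are known from the thyroid, where their peroxide serves hormone synthesis, and from gut and airway epithelium, where they act in defence against microbes. NOX1 works with CYBA, NOXA1, NOXO1 and RAC1, while NOX4 needs CYBA alone and is regarded as active without further subunits. In liver, NOX enzymes are known from fibrosis and inflammation.

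The 4 DUOX genes lie side by side on chromosome 15 of GRCh38 as 2 head-to-head pairs, and the sequence between the start sites of each pair is shown because the partners of a pair start beside each other. DUOX2 (ENSG00000140279) spans 45092650 to 45114344 on the minus strand and DUOXA2 (ENSG00000140274) 45114321 to 45118421 on the plus strand. DUOXA1 (ENSG00000140254) spans 45117367 to 45129938 on the minus strand and DUOX1 (ENSG00000137857) 45129933 to 45165576 on the plus strand. In RefSeq (GRCh38.p14) 153 bases separate the starts of DUOX2 and DUOXA2, at chr15:45114173-45114325, and 114 bases separate those of DUOXA1 and DUOX1, at chr15:45129880-45129993. The GENCODE spans above reach further, and overlap by 24 bases for DUOX2 and DUOXA2 and by 6 bases for DUOXA1 and DUOX1. The 2 stretches therefore lie between starts by RefSeq only. Both stretches are written on the plus strand, with a TATA box (TATAAA) in capitals.
DUOX2 to DUOXA2: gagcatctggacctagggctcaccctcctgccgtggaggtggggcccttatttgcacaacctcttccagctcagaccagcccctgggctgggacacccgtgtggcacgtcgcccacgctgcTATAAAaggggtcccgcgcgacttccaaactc
DUOXA1 to DUOX1: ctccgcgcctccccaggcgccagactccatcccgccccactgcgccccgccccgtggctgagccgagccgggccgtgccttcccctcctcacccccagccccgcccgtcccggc

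The stretches differ in composition, at 63.4% GC between DUOX2 and DUOXA2 and 80.7% between DUOXA1 and DUOX1. The TATA box begins 32 bases before the RefSeq start of DUOXA2 and 122 bases from that of DUOX2. TATAAA was found in either orientation in 11.5% of 35116 RefSeq promoter windows of 300 bases, and among the 11 windows of the 8 genes only in those of DUOX2 and DUOXA2, which overlap by 253 bases. The hypoxia response core ACGTG was likewise found only in those windows, against 21.4% of all promoters. The GC box GGGCGG was found in 5 of the 11 windows, those of DUOX1, DUOXA1, CYBA, NOX4 and NOXA1, against 45.0% of all promoters. In the windows of DUOX2 and DUOXA2 neither the NF-kB motif (held by 11.3% of promoters), the STAT motif TTCNNNGAA (7.66%) nor the interferon response element (GAAA, any 2 bases, GAAA; 3.57%) was found, which says only that these letters are not in the 300 bases.

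The microRNA named in the title is shown, with its seed (bases 2 to 8) in capitals. Its relative miR-19b has the same seed. A match to this seed was sought in the 3' UTRs of the 8 genes.
hsa-miR-19a-3p: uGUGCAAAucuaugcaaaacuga
hsa-miR-19b-3p: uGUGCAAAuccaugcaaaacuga

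The matching site TTTGCAC was found in the longest annotated 3' UTR of 2603 of 19146 coding genes (13.6%). Of the 8 genes only NOX4 held it, once, at base 985 of a 2400-base 3' UTR, here with 10 bases on either side and the site in capitals.
NOX4 site: agttagttaaTTTGCACtttgagacca

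The 3' UTRs of DUOX2 (1500 bases), DUOXA2 (512 bases), DUOX1, DUOXA1, NOX1, CYBA and NOXA1 held none. Only this match in the longest 3' UTR was sought, so other kinds of site and other parts of the transcripts were not covered. NOX4 (ENSG00000086991, chromosome 11 from 89324356 to 89498187, minus strand) had 0 reads in all 5 libraries compared. That allows up to 0.00891 RPKM over the 5 libraries together, and from 0.0251 RPKM in the deepest to 0.253 RPKM in the shallowest (3 reads, counting error only). A rise of NOX4 above 0.0529 RPKM in knockdown replicate 1 or 0.0324 RPKM in knockdown replicate 3 would probably have given reads, and none were seen. A fall, or a rise that stays below these levels, was not detectable at this depth.

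Values are RPKM, reads scaled by exon length and by the reads assigned in the library, so levels can be compared between genes. Knockdown replicate 2 was left out because its values are out of step with the gene IDs, so 3 control libraries were compared with knockdown replicates 1 and 3. These hold 1948940 to 19605312 assigned reads, recovered from the RPKM steps, and control replicate 2 is the shallowest, with 0 to 18 reads for 7 of the 8 genes. Mitochondrial transcripts took 4.94% to 10.4% of reads. All 10 hepatocyte and liver cancer markers of the list had reads, with albumin (ALB) at 652.4 to 950.9 RPKM and alpha-fetoprotein (AFP) at 217.3 to 312.5 RPKM over the 5 libraries. Comparisons used limma on log2(RPKM + 0.5), two-sided, over the 15408 genes that reached 0.5 RPKM in 3 or more libraries, with Benjamini-Hochberg adjustment and a threshold of 0.05. Fold changes on this scale understate those of low genes.

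DUOX2, DUOXA2, DUOX1, CYBA and NOXA1 were higher in both knockdown libraries than in each of the 3 controls, while DUOXA1 and NOX1 overlapped and NOX4 had no read. In bulk RNA, a change in the share of cells with a transcript and a change in RNA per cell cannot be told apart. This order was the ground for choosing DUOX2, and it was seen in 14.3% of all genes tested and in 12.5% of the 32271 genes with a read in any of the 5 libraries. Limma called 0 of the 3 other genes tested (CYBA, NOXA1 and NOX1), and 0.00% of all genes tested. At an unadjusted p under 0.05 stood 2 of those 3 genes, CYBA and NOXA1, and 6.34% of all genes tested. With voom on recovered reads and sample weights limma called 4 genes (0.0260% of those tested) and 0 of these 3. DUOXA2 passed the filter on low values in 2 libraries, both knockdown, and DUOX1 and DUOXA1 in none, so these 3 have no limma test at the main filter.

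**Figure D1:**
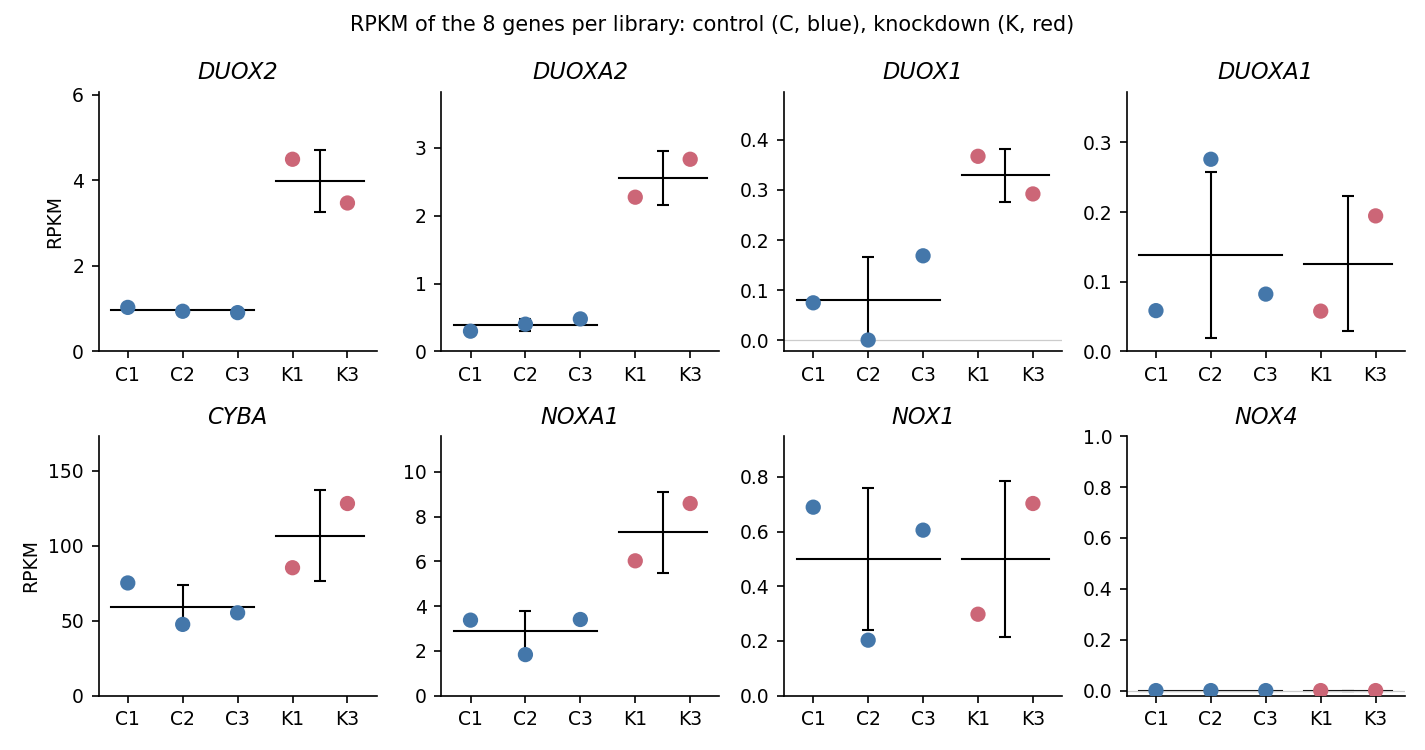
RPKM of the 8 genes in control libraries 1 to 3 (C, blue) and knockdown libraries 1 and 3 (K, red), each panel on its own linear axis, with the group mean as a line and the SD as a bar. DUOX2 and DUOXA2 stand well above the controls in both knockdown libraries, DUOXA1 and NOX1 overlap, and NOX4 is at 0 throughout.

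DUOX2, the oxidase of the first pair, had control levels of 1.03, 0.939 and 0.908 RPKM, and reached 4.50 RPKM in knockdown replicate 1 and 3.47 RPKM in knockdown replicate 3. The controls lay close together, and the lower knockdown library was 3.37 times the highest control. These values rest on 93, 18 and 175 reads in the controls and on 411 and 519 reads in the knockdown libraries. The control mean was 0.959 ± 0.0635 RPKM (SD, n = 3). Knockdown averaged 3.98 ± 0.724 RPKM (SD, n = 2), a ratio of 4.15, and the log2 difference was 1.61 (SE 0.21). That SE comes from the values DUOX2 was chosen on and is no basis for a test. The log2 difference ran from 1.45 without knockdown replicate 1 to 1.78 without knockdown replicate 3.

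DUOXA2, which DUOX2 needs to leave the endoplasmic reticulum, had control levels of 0.299, 0.402 and 0.479 RPKM and knockdown levels of 2.27 and 2.83 RPKM. Here too the groups were far apart, with the lower knockdown library at 4.75 times the highest control. The controls hold few reads, 7, 2 and 24, against 54 and 110 in the knockdown libraries. Mean levels were 0.393 ± 0.0907 RPKM (SD, n = 3) and 2.55 ± 0.396 RPKM (SD, n = 2), a ratio of 6.50. The log2 difference was 1.77 on the log2(RPKM + 0.5) scale. With limma voom on the recovered reads of 20706 genes with 10 or more reads over the 5 libraries, chosen after seeing the data, it was 2.60 (SE 0.38), with an unadjusted p of 7.88e-05 that did not pass adjustment (adjusted p = 0.326). With all 32271 genes above 0 in at least 1 library tested, the log2 difference of 1.77 did not pass either (adjusted p = 0.436 in limma). A filter of 0.5 RPKM in at least 2 libraries also let DUOXA2 in, but only through the knockdown libraries, where it is high, so its p there is not given.

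Within a library, DUOXA2 stood at 0.290, 0.428 and 0.528 of the DUOX2 level in the controls and at 0.506 and 0.816 in the knockdown libraries. The ranges overlap, and the oxidase was above its maturation factor per length of exon in each of the 5 libraries. The annotated exons of the pair share 24 bases, and 706 of the 2554 exonic bases of DUOXA2 also belong to DUOXA1 on the other strand. How reads there were counted is not given, so the DUOXA2 levels and ratios hold only for the values as deposited. The order in knockdown replicate 3, where the ratio is nearest to 1, is therefore uncertain. Whether the authors' counting used strand is not given in the sources used here, so reads from these bases cannot be assigned to a strand.

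DUOX1, the oxidase of the second pair, had control levels of 0.0744, 0 and 0.168 RPKM and knockdown levels of 0.367 and 0.292 RPKM. The 0 in control replicate 2 allows up to 0.175 RPKM (3 reads), still under both knockdown values. Reads numbered 6, 0 and 29 in the controls and 30 and 39 in the knockdown libraries, and the lower knockdown library was 1.73 times the highest control. In voom on 10 or more reads the log2 difference was 1.62 (SE 0.56), with an adjusted p of 0.504, and on the log2(RPKM + 0.5) scale it was 0.52. DUOX1 was thus the lower oxidase of the locus in each library, with means of 0.0809 ± 0.0844 RPKM (SD, n = 3) and 0.330 ± 0.0532 RPKM (SD, n = 2) beside the DUOX2 means above.

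DUOXA1, the maturation factor of DUOX1, had control levels of 0.0585, 0.276 and 0.0822 RPKM and knockdown levels of 0.0578 and 0.195 RPKM. The groups overlapped, and no library held more than 11 reads. In voom on 10 or more reads its log2 difference was 0.39 (SE 0.77; adjusted p = 0.889), so a change of the size seen in DUOX1 was not detectable at this depth. Of its 3721 exonic bases 706 also belong to DUOXA2 on the other strand, and without strand the reads there cannot be told apart.

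**Figure D2:**
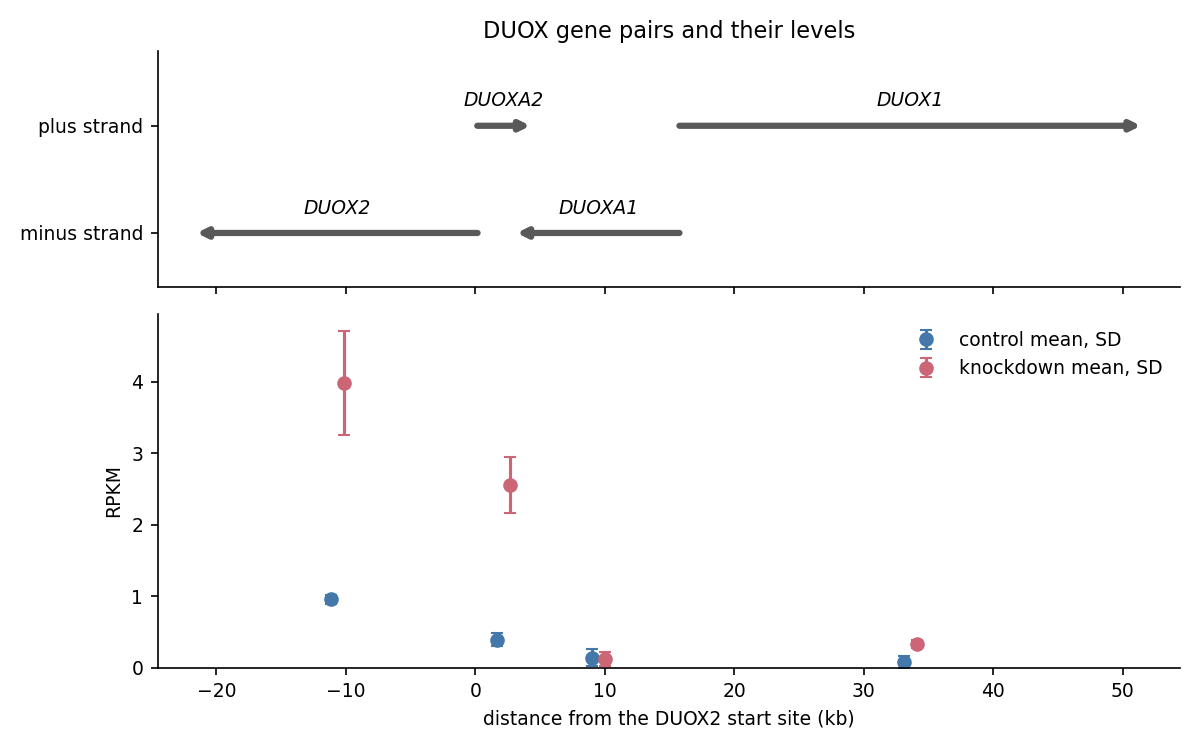
Top: GENCODE spans of the 4 DUOX genes on both strands by distance in kb from the RefSeq start site of DUOX2, arrows pointing in the direction of transcription. Bottom: mean RPKM with SD in control (blue, n = 3) and knockdown (red, n = 2) at the middle of each gene, highest for DUOX2 and DUOXA2 and under 0.5 RPKM for DUOXA1 and DUOX1 in both groups.

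Around the locus, 32 other annotated genes lie within 250 kb on either side, of which 7 were tested. Their log2 differences ran from -1.93 to 0.69 with a median of 0.12. Only SHF, at 1.26 to 1.87 RPKM in the controls and 2.59 and 2.76 RPKM in the knockdown libraries, was above all controls, and the other 6 overlapped. Over all genes tested 14.3% lay above all controls and 13.6% below, so 1 of 7 is near that share. SORD, the next protein-coding gene beyond DUOX2, was at 8.33 to 11.3 RPKM in the controls and 10.3 and 11.6 RPKM in the knockdown libraries.

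CYBA (ENSG00000051523, chromosome 16 from 88643283 to 88651152, minus strand), the p22phox subunit that stabilises NOX1 and NOX4 in the membrane, had the highest level of the 8 genes. The controls held 75.2, 47.5 and 55.2 RPKM and the knockdown libraries 85.3 and 128.2 RPKM. Knockdown replicate 1 lay only 1.14 times above control replicate 1, so the groups are close at their edges. Means were 59.3 ± 14.3 RPKM (SD, n = 3) and 106.7 ± 30.3 RPKM (SD, n = 2), a ratio of 1.80. The log2 difference was 0.84 (SE 0.28) and did not pass in limma (adjusted p = 0.71). It was 0.55 without knockdown replicate 3.

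NOXA1 (ENSG00000188747, chromosome 9 from 137423350 to 137434406, plus strand), the activator of the NOX1 complex, had control levels of 3.38, 1.83 and 3.40 RPKM. Both knockdown libraries were above these, at 6.03 and 8.59 RPKM. Control replicate 2 was the lowest, with 6 reads, against 52 to 219 reads in the others. Means were 2.87 ± 0.898 RPKM (SD, n = 3) and 7.31 ± 1.81 RPKM (SD, n = 2), a ratio of 2.54. The log2 difference was 1.23 (SE 0.31), and it did not pass in limma (adjusted p = 0.71). Its exons share 43 bases with ENTPD8 on the other strand.

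CYBA and NOXA1 have 3357 and 1678 exonic bases and 61.3% and 70.0% GC in their longest transcripts. DUOXA2 is near CYBA in both, with 2554 exonic bases and 60.1% GC. With the trends against length and GC content removed from every library, the log2 difference was 0.59 for CYBA (adjusted p = 0.546 in limma) and 0.84 for NOXA1 (adjusted p = 0.522 in limma). The same removal put DUOX2 at 1.64, against 1.61 before it. DUOXA2 did not pass the main filter, so its trends were fitted on all 32271 genes with a read in any of the 5 libraries. There DUOXA2 was at 1.61, against 1.77 before, a value not comparable with those of CYBA, NOXA1 and DUOX2.

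NOX1 (ENSG00000007952, chromosome X from 100843324 to 100874345, minus strand), the catalytic subunit that CYBA and NOXA1 serve, showed no such order. The controls held 0.689, 0.203 and 0.605 RPKM and the knockdown libraries 0.298 and 0.702 RPKM, on 1 to 30 reads. Each group held a low and a high library, and the log2 difference was 0.01 (SE 0.36; adjusted p = 0.998 in limma). Its sign depended on the setting, with 10 of 20 alternatives above 0, 9 below and 1 at 0.00.

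In the controls the mean levels per length of exon ran from CYBA through NOXA1, DUOX2, NOX1, DUOXA2, DUOXA1 and DUOX1 to NOX4. CYBA, NOXA1 and DUOX2 were separated from each other in each control library, while NOX1 overlapped DUOXA2 and DUOXA1 overlapped both DUOX1 and NOX1. In the knockdown libraries the order was CYBA, NOXA1, DUOX2, DUOXA2, NOX1, DUOX1, DUOXA1 and NOX4. There DUOX2 lay above DUOXA2 and DUOXA2 above NOX1 in both libraries by the values as deposited, with the limit of shared exonic bases given above. NOX1 and DUOX1 overlapped. The NOXA1 level was 1.95 to 3.75 times that of DUOX2 in the controls and 1.34 and 2.47 times in the knockdown libraries.

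The other NADPH oxidase genes were read from a list of 14 components and partners, of which 8 were tested and 0 passed in either direction. Their median log2 difference was 0.13, against -0.00 over all genes tested. The list median was 0.07 without control replicate 2, 0.20 without control replicate 3 and 0.23 without knockdown replicate 3. In 3 of the 8 both knockdown libraries lay above all controls, and in 0 below, against 14.3% above and 13.6% below over all genes tested. RAC2, a GTPase of the phagocyte oxidase, was at 0.811 to 1.59 RPKM in the controls and 3.14 and 3.66 RPKM in the knockdown libraries. Its log2 difference was 1.15 (SE 0.28, adjusted p = 0.71 in limma). RAC2 was named after its values were seen. RAC1, the GTPase that NOX1 uses, was the most abundant of the list, at 78.5 to 88.2 RPKM and 112.3 and 141.8 RPKM, a difference of 0.60 (SE 0.17; adjusted p = 0.71 in limma).

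POLDIP2, a NOX4 partner, and TXNDC11, a thioredoxin-like protein that binds DUOX enzymes, overlapped between the groups, with log2 differences of 0.08 (SE 0.16) and 0.07 (SE 0.18). The catalytic subunits CYBB and NOX5, the phagocyte subunit NCF4 and the NOX1 organiser NOXO1 were listed at 0 in all 5 libraries. NOX3 had no read in the controls and 0.0527 and 0.0322 RPKM in the knockdown libraries. DUOX2 was thus the catalytic subunit of highest mean level in both groups, among DUOX1, DUOX2, CYBB and the NOX genes of the list.

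**Figure D3:**
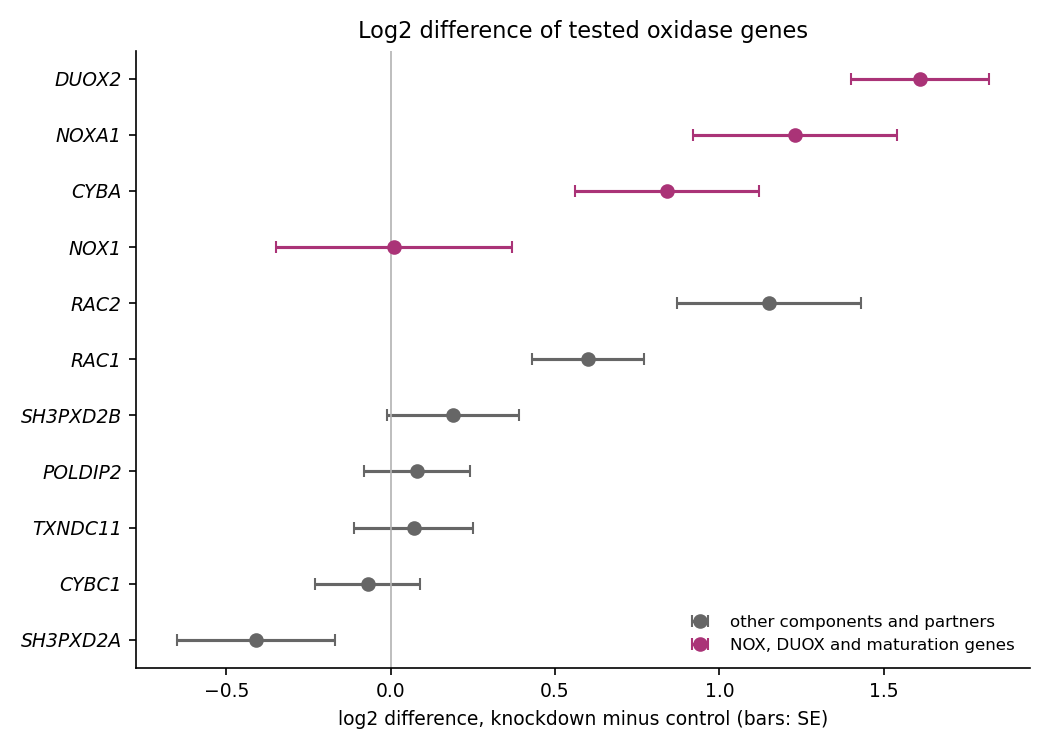
Log2 difference, knockdown minus control, with its SE from limma, for the tested genes among the 8 (purple) and 7 of the tested other components and partners (grey). DUOX2, NOXA1, RAC2, CYBA and RAC1 lie furthest to the right, and NOX1 is at 0.01. DUOX2 was chosen on these values, so its bar is no basis for a test.

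Enzymes that use or remove peroxide and superoxide were read from a list of 23 genes, of which 18 were tested and 0 passed. The median log2 difference was 0.15, and 0.01 without knockdown replicate 3. Of the 18, 4 genes were above all controls and 1 below, against 14.3% and 13.6% of all genes tested. The most abundant, PRDX1, PRDX5 and TXN, peroxiredoxins and thioredoxin, overlapped between the groups with differences of 0.08 (SE 0.26), 0.44 (SE 0.26) and 0.08 (SE 0.21). PXDN, a peroxidase of the extracellular matrix, was listed at 0 in all 5 libraries. LPO, the peroxidase that uses DUOX peroxide in airways, reached 0.0167 RPKM in 1 library. SOD2, the mitochondrial superoxide dismutase, was at 12.9 to 21.8 RPKM in the controls and 33.5 and 31.5 RPKM in the knockdown libraries (adjusted p = 0.71 in limma); it was named after its values were seen.

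Genes of signals known to induce DUOX2 numbered 15, of which 11 were tested and 0 passed, with a median log2 difference of 0.06. That median was 0.02, 0.03 and 0.09 with control replicates 1, 2 and 3 left out in turn, and 0.01 and 0.13 with knockdown replicates 1 and 3 left out. The cytokine receptor genes TNFRSF1A and IL13RA1, among the most abundant, overlapped between the groups with differences of 0.01 (SE 0.28) and -0.21 (SE 0.22). In 2 of the 11 genes, IRF1 and RELA, both knockdown libraries lay above all controls, near the 14.3% of all genes tested, and in 0 below. Both were named after their values were seen. IRF1, an interferon response factor, was at 1.38 to 4.09 RPKM in the controls and 4.40 and 5.33 RPKM in the knockdown libraries. The differences of IRF1 and RELA, 0.75 (SE 0.41) and 0.16 (SE 0.14), did not pass.

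Epithelial defence genes, which are often measured beside DUOX2 in gut and airway, numbered 14, of which 7 were tested and 0 passed. Their median log2 difference was 0.36, and 4 of the 7 were above all controls and 0 below, against 14.3% and 13.6% of all genes tested. The median ran from 0.26 to 0.43 as each library was left out in turn. The complement component C3 was at 375.5 to 458.8 RPKM in the controls and 523.8 and 400.6 RPKM in the knockdown libraries, which overlap. The chemokine genes CCL20 and CXCL1 were above the controls, with differences of 0.38 (SE 0.20) and 0.36 (SE 0.26). SAA1, an acute-phase protein, rested on 0, 1 and 10 reads in the controls and 13 and 38 in the knockdown libraries. Its difference was 1.72 (SE 0.47; adjusted p = 0.71 in limma). It passed in the fit with a replicate block (adjusted p = 0.028 in limma), which called 0.260% of genes. That block pairs libraries by number alone and leaves 1 residual degree of freedom, so the pass carries little weight. LCN2, which binds bacterial siderophores, held 0.273, 0 and 0.415 RPKM in the controls and 1.48 and 1.73 RPKM in the knockdown libraries. SAA1 and LCN2 were named after their values were seen, and LCN2 did not pass the filter on low values.

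TGF-beta pathway genes, known to induce NOX4, were tested for 8 of 8 members and 0 passed, with a median of 0.10, which came to 0.17 when control replicate 3 was left out and to 0.16 when knockdown replicate 3 was. Among them 3 were above all controls and 1 below, against 14.3% and 13.6% of all genes tested. TGFBR2 and TGFB1, among the most abundant, differed by -0.56 (SE 0.18) and 0.57 (SE 0.17). TGFB1 was above all controls and its receptor TGFBR2 below all controls, with NOX4 at 0 reads in both groups.

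**Figure D4:**
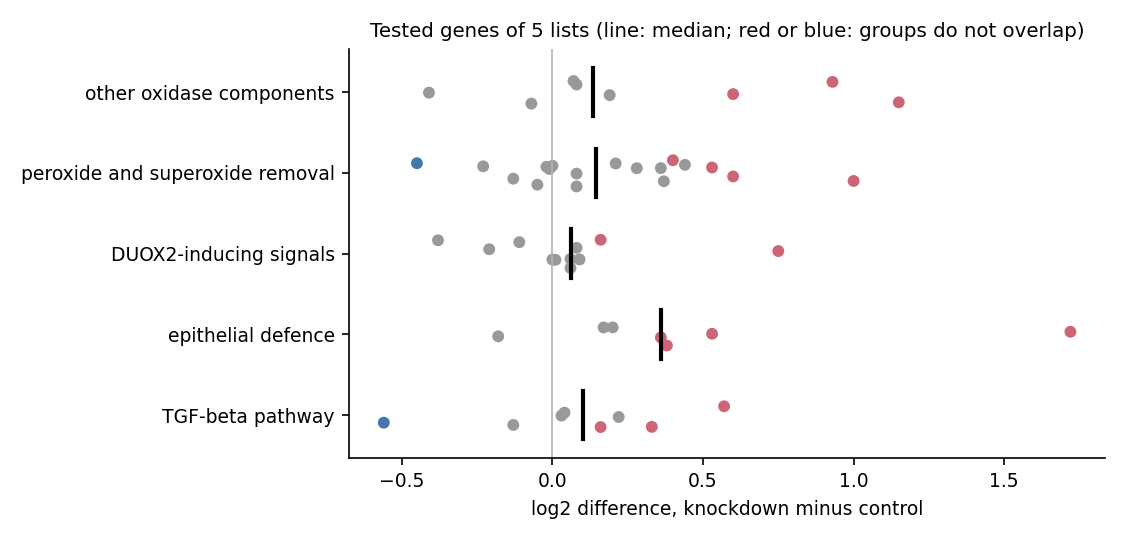
Log2 difference, knockdown minus control, of each tested gene in the 5 lists, with the list median as a black line. Red points have both knockdown libraries above all controls, blue points below all controls, and grey points overlap; epithelial defence has the highest median at 0.36.

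Markers of other cell types that carry these enzymes were mostly low. Of 9 thyrocyte markers 2 were tested, NKX2-1 reached 0.0208 RPKM in 1 library, and the summed level was 2.32 to 3.69 RPKM in the controls and 2.03 to 2.58 RPKM in the knockdown libraries. Of 10 phagocyte markers 4 were tested, CYBB was at 0, and PTPRC was at or below 0.0713 RPKM in each library. The phagocyte sum was 43.7 to 51.3 RPKM in the controls and 47.7 to 54.8 RPKM in the knockdown libraries and came mostly from CD14. Of 8 gut and airway markers 4 were tested, and FABP2 and SCGB1A1 were at 0. Their sum was 99.3 to 107.2 RPKM in the controls and 87.1 to 95.5 RPKM in the knockdown libraries and came mostly from villin (VIL1). CDX2, an intestinal transcription factor in that list, was at 7.22 to 12.8 RPKM in the controls and 16.6 and 18.8 RPKM in the knockdown libraries. VIL1 went the other way, at 89.1 to 91.0 RPKM in the controls and 75.6 and 64.8 RPKM in the knockdown libraries. The other tested markers of that list, FOXJ1 and LGR5, overlapped, and none of the list passed. The part of CDX2 in the DUOX2 difference was not tested. Of 8 fibroblast and endothelial markers 5 were tested, with a sum of 64.5 to 84.0 RPKM in the controls and 68.6 to 72.8 RPKM in the knockdown libraries. Lumican (LUM), at 54.2 to 68.3 RPKM in the controls and 54.5 and 53.5 RPKM in the knockdown libraries, made up most of it. Of the other 4 tested, the collagen genes COL1A1 and COL1A2 were above all controls and PDGFRA and PECAM1 below, and none passed. Over all genes tested 14.3% were above all controls and 13.6% below.

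The genes whose pattern was most like that of DUOX2 were ranked by the root mean square difference of centred log2(RPKM + 0.5) over the 5 libraries, among 15407 other tested genes. The 5 nearest were the long noncoding RNA AC026401.3 (0.170), the GTPase gene RRAD (0.197), the pseudogene AP000769.1 (0.210), the ISG15-conjugating enzyme UBE2L6 (0.240) and the neuropeptide NPY (0.260). RRAD ranged from 1.16 to 2.23 RPKM in the controls and held 6.04 and 5.27 RPKM in the knockdown libraries. The measure describes likeness over 5 libraries, and the 5 genes share with DUOX2 the same libraries and depths. AP000769.1 is uncertain, since reads of a pseudogene and its parent gene can be confused.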

How the data were processed

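The authors deposited 1 table of RPKM values for 58676 genes and 6 libraries, as the labels' description field states. HISAT2 and GRCh38 are named in the submitters' processing notes, and the sources used here do not give the counter, annotation, filters or strand setting. Symbols, coordinates and exon lengths came from GENCODE release 29, which held all 58676 IDs, and sequences from RefSeq. In 5 libraries 100% of RPKM values times exon length were whole multiples of 1 step (tolerance 0.002), read as reads; knockdown replicate 2, at 0.378%, was left out.

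The design was fitted with limma 3.58.1 in R 4.3.3 (lmFit, eBayes with a mean-variance trend) without covariates. Where a symbol had 2 IDs (SOD2) the one of greater exon length was used. The members and the 5 pathway and 5 marker lists were chosen with earlier results of these data known. From each list the 3 genes of highest mean RPKM and up to 5 past the threshold in each direction were named, beside all 8 members and the genes most like DUOX2; some genes of these lists are counted but not reported here. NOX4 and DUOX1 were not tested, so no genes like them were sought. The code was tested on simulated data. Alternatives were other pseudocounts, filters, scalings, voom, trend removal, the replicate block, all 6 columns, and each library left out. Intervals and floors cover counting error only.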

Additional observations from a re-analysis of the deposited data

Results flagged for a closer look

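The row of CYBA in knockdown replicate 2, the column left out of the comparisons, holds 111.1 RPKM as deposited, above the highest control (75.2 RPKM), while the rows of the other 7 genes hold 0. That column is out of step with the gene IDs, so this value is not a CYBA level.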

How the results depend on the processing

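DUOX2, DUOXA2, DUOX1 and CYBA had a log2 difference above 0 in each of 20 alternatives, over ranges of 0.56 to 2.03, 0.90 to 2.60, 0.28 to 1.62 and 0.55 to 1.13. The lowest DUOX2 and DUOXA2 values came from all 6 columns as deposited. NOXA1 was above 0 in 19 of them, between 0.84 and 1.47, and at -0.08 with the 6 columns. All of these genes had both knockdown libraries above all controls. Another pseudocount or filter, or a library left out, could therefore not turn the sign, and its constancy there is no support. For DUOX2 that order was also the ground for choosing it. The 6 columns include values that do not belong to these genes. Voom at the main filter, voom with sample weights and the replicate block did not test DUOXA2, DUOX1 or DUOXA1. Their values there only repeat those of the main setting, 1.77, 0.52 and -0.02, and are no further check. NOX1 reached 0.30 without knockdown replicate 1 and was below 0 with quantile scaling (-0.14), voom (-0.21, and -0.21 on 10 or more reads), voom with sample weights (-0.34), trends removed (-0.06), the 6 columns (-0.32), the replicate block (-0.23), without control replicate 2 (-0.23) and without knockdown replicate 3 (-0.29). DUOXA1 was at 0.39 with voom on 10 or more reads against -0.02. The medians of the 5 gene lists lay between -0.01 and 0.43 in the other 19 alternatives and between -2.07 and -1.23 with the 6 columns. The cause of these changes was not tested. Over all genes tested, limma called 0 at the main setting, 4 with voom and sample weights and 40 with the replicate block, and 0 when any 1 library was left out; none of the 8 genes that were tested, DUOX2 aside, was called in any setting. The numbers 1 and 3 give 2 pairs, and their differences correlated at -0.08 across genes. This 1 correlation cannot decide whether libraries of the same number were paired. The block leaves 1 residual degree of freedom. The reads of control replicate 2 limit what can be seen of DUOX1, DUOXA1 and NOX1.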
